A study of Mus musculus with 9 samples.

Results

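Cytochrome P450 genes were followed in cultured mouse airway epithelium. The members are the 92 genes of the 56748 in the deposited table whose symbol is Cyp followed by a number, a letter code and a number, with the retinoic acid hydroxylases of the Cyp26 group left out. Pseudogenes, Cyp51 and the names that end in a letter, such as Cyp4a12b, fall outside that pattern. Of the 92 members, 25 reached 10 normalized counts in at least 3 libraries and 67 did not. Of those 67, 34 had no read in any library, and 33 had reads but stayed under the limit, with a highest value of 29.7 normalized counts for Cyp2w1 on day 5.

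P450 enzymes are heme proteins that use NADPH and oxygen to insert an oxygen atom into small, mostly oily molecules. Most of those of the endoplasmic reticulum take electrons from the reductase Por, often helped by cytochrome b5. Those of mitochondria take them from the ferredoxin Fdx1 and its reductase Fdxr. Families 1 to 3 act mainly on foreign compounds, family 4 on fatty acids and eicosanoids, and families 7 to 46 mainly on sterols, steroids, bile acids and vitamin D. In the mouse airway, club cells are the best known site of P450 metabolism, and the enzyme Cyp2f2 turns naphthalene into the product that kills these cells.

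The cells were wild-type (WT) primary mouse airway basal stem cells, the progenitors at the base of the tracheal lining. They were grown in ALI culture, in which a sheet of cells on a membrane is fed from below and meets air above. Libraries were made on days 1, 3 and 5, which the submitters call stages of proliferation, stratification and luminal specification, with 3 libraries a day and totals of 16.4 to 35.1 M reads. Whether the 3 libraries of a day come from different animals or culture wells is not stated in the labels, and the p-values therefore describe the spread of these libraries, part of which may be technical. In a culture of mixed cells, more cells of a type and more RNA per cell cannot be told apart.

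Markers of other cell types were read for the same libraries. The summed level of the 5 club cell markers (Scgb1a1, Scgb3a1, Scgb3a2, Cbr2 and Aldh1a1) was 2377 to 7064 normalized counts on day 1, 243020 to 365390 on day 3 and 356460 to 519800 on day 5. Cbr2 made up most of it on day 1 and nearly all of it on day 3, and did not pass the test on day 5 against day 3 (log2 change 0.0018, adjusted p = 0.997). The other 4 markers rose in that step, with means for Scgb1a1 of 18744 on day 5 and 96.8 on day 3. The summed level of the 5 multiciliated markers was 4.15 to 6.06, 53.6 to 68.7 and 3782 to 4552 on days 1, 3 and 5. Of the 7 leukocyte markers, Ptprc and Tyrobp were at or near 0 throughout, and the summed level of 255 to 289, 1561 to 1728 and 173 to 201 on days 1, 3 and 5 was mostly Cd68. The 7 fibroblast markers summed to 4.07 to 14.9, 4.02 to 8.88 and 103 to 130 on days 1, 3 and 5, nearly all Dcn on day 5, and the 5 endothelial and muscle markers to at most 28.7. The 4 basal markers summed to 151190, 95532 and 55610 on average on days 1, 3 and 5, mostly Krt5 and Krt14. Ngfr instead averaged 359, 1581 and 1989.9 and rose in both steps, and Trp63 averaged 3811, 1644 and 2798, which fell in the first step and rose in the second. The 4 Y-linked transcripts, which mark male cells and no cell type, also differed between days. Their summed means were 3137.5, 323.5 and 461 on days 1, 3 and 5, and Xist averaged 1825, 5998 and 7373. Whether the mix of male and female cells differed between days was not tested. Such a difference in the source of the cells cannot be told apart from the day in any comparison here. The part of each of these in the P450 results was not tested.

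The 92 members took a growing share of the RNA over the 3 days. Of all normalized counts they made up 0.0204 ± 0.0039%, 0.122 ± 0.0175% and 1.75 ± 0.0569% on days 1, 3 and 5 (SD, n = 3 each). Cyp51, a P450 outside the pattern, fell and is not in this sum; it averaged 7673 normalized counts on day 1, above the 92 members together at 4345.5. Members with a mean of at least 100 normalized counts numbered 12, 16 and 20 on days 1, 3 and 5, and those with a mean of at least 1000 numbered 0, 2 and 5. A few genes carried the sum. Counted per kilobase of transcript, Cyp2f2 alone made up 22.5 ± 12.6%, 79.0 ± 2.11% and 83.4 ± 0.896% of the family on days 1, 3 and 5 (SD, n = 3 each). On day 5 Cyp2a5 added 10.6% and Cyp4b1 3.62%, and the orphan Cyp20a1, at 18.3% on day 1, was down to 0.0944%.

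**Figure D1:**
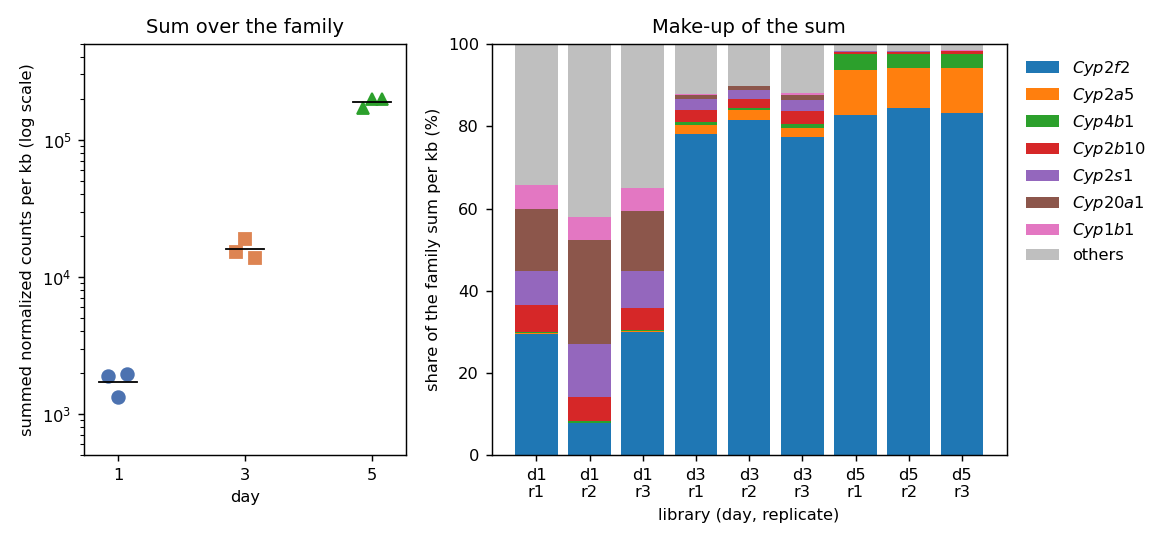
Left, the level of the whole P450 family in each library, in summed normalized counts per kb on a log scale, with day on the x axis and a line at the mean of each day. Right, the make-up of that sum in each library (d, day; r, replicate) in percent per kb; Cyp2f2 takes 77.5 to 81.4% on day 3 and 82.7 to 84.4% on day 5, and day 1 replicate 2 has the smallest Cyp2f2 share, 7.92%.

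Each change between days was tested with limma over all 17338 genes past the limit, with Benjamini-Hochberg adjustment over all of them. On day 3 against day 1, 22 of the 25 detected members rose and 3 fell (Cyp1b1, Cyp20a1 and Cyp4f39). Among all tested genes 36.1% rose and 37% fell in that comparison. The median log2 change was 2.08 for the members and 0.0034 for all tested genes. On day 5 against day 3, 18 members rose, 2 fell (Cyp27a1 and Cyp2s1) and 5 did not pass the test (Cyp20a1, Cyp2u1, Cyp4f13, Cyp4f16 and Cyp7b1), beside 34.8% of all tested genes that rose and 32.4% that fell. The median was 1.12, against 0.055 for all tested genes. On day 5 against day 1, 22 members rose and 2 fell (Cyp1b1 and Cyp20a1), beside 36.7% and 37.7% of all tested genes, and Cyp4f39 did not pass.

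These counts cannot be read as a property of the family. 9 members had a mean under 10 on day 1 and could pass the limit only through later days (Cyp2a4, Cyp2a5, Cyp2b19, Cyp2t4, Cyp46a1, Cyp4b1, Cyp4f40, Cyp4v3 and Cyp7b1), so a rise was built into their choice. Of the other 16, 13 rose and 3 fell on day 3 against day 1, 10 rose and 2 fell on day 5 against day 3, and 13 rose and 2 fell on day 5 against day 1. Beside them stand all 15161 tested genes with a day 1 mean of 10 or more. Of these, 5083 rose and 6340 fell on day 3 against day 1, and 4795 rose and 5355 fell on day 5 against day 3. On day 5 against day 1, 4573 of them rose and 6501 fell. All 25 differed somewhere across the 3 days in the F test of the same fit, as did 91.4% of all tested genes.

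**Figure D2:**
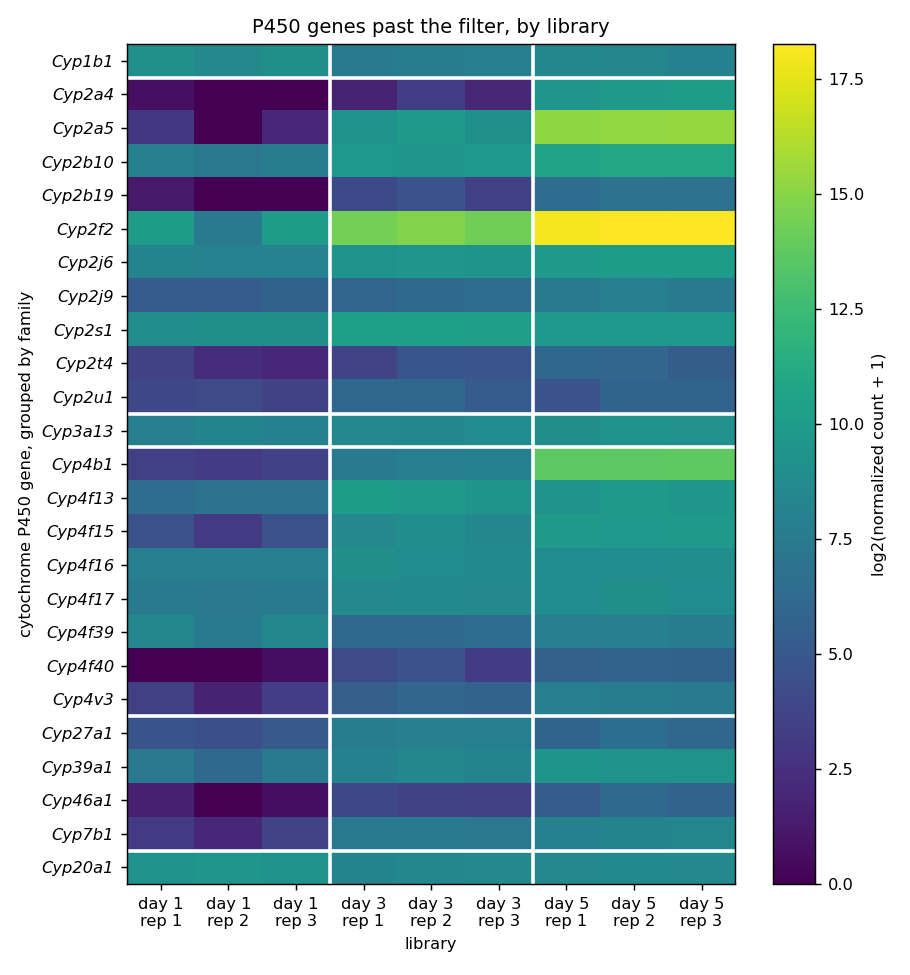
Level of the 25 detected P450 genes in each of the 9 libraries, as log2(normalized count + 1), with genes grouped by family from top to bottom and libraries from left to right. Cyp2f2, Cyp2a5 and Cyp4b1 are the 3 brightest rows on day 5; Cyp1b1, Cyp4f39 and Cyp20a1 are brighter on day 1 than on day 3.

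Family 2 holds 49 members here, since the vitamin D hydroxylase Cyp2r1 is counted with the sterol group, and 10 were detected and 21 had no read. All 10 rose on day 3 against day 1 (36.1% of all tested genes), but 4 of them (Cyp2a4, Cyp2a5, Cyp2b19 and Cyp2t4) were detected only through later days. In the step to day 5 against day 3, 8 of 10 rose and 1 fell (34.8% and 32.4% of all tested genes). Cyp2f2 (ENSMUSG00000052974), the naphthalene-activating enzyme of mouse club cells, was the most abundant of the 92 members per kb in the mean of every day. It had 1035, 195 and 1089.7 normalized counts on day 1, 21987, 28706 and 20008 on day 3, and 261859, 314483 and 307497 on day 5. The days did not overlap. Cyp2f2 rose on day 3 against day 1 by 5.27 ± 0.52 on the log2 scale (SE, adjusted p = 8.4e-06) and on day 5 against day 3 by 3.66 ± 0.52 (adjusted p = 0.00016). Day 1 replicate 2 lay far below its 2 companions, as did its Cbr2 level (2087 normalized counts, against 6407 and 6109). Without that library the log2 change on day 3 against day 1 was 4.45, and the second step minus the first was then -0.80 (adjusted p = 0.032), against -1.61 (adjusted p = 0.13) with all 9 libraries.

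Cyp2a5 (ENSMUSG00000005547), which hydroxylates coumarin and nicotine, was nearly silent at the start. Its values were 6.78, 0 and 3.03 normalized counts on day 1, 652, 917 and 564 on day 3, and 37438, 39565 and 43415 on day 5, with no overlap between days. It rose on day 3 against day 1 by 7.79 ± 0.57 on the log2 scale (SE, adjusted p = 1.4e-06), with 8.44 and 6.96 when day 1 replicate 1 or replicate 2 was left out. On day 5 against day 3 it rose by 5.84 ± 0.57 (adjusted p = 1.1e-05).

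Its close copy Cyp2a4, a steroid hydroxylase, had 0.678, 0 and 0 normalized counts on day 1, 2.498, 9.37 and 2.96 on day 3, and 732, 962 and 1051 on day 5. On day 5 against day 3 it rose by 7.43 ± 0.44 on the log2 scale (SE, adjusted p = 4.0e-07), a fold of 173. In the first step it had 12 reads over the 3 libraries of day 3, against 1 read on day 1, a ratio of 20.3 with a counting interval of 3 to 867. In the fit the second step exceeded the first by 5.29 ± 0.76 (adjusted p = 0.00014). The scale with 1 added to each count understates the first step, and the counting interval of that step includes 173. Which step had the larger fold is therefore not settled for Cyp2a4. The 2 genes share sequence, since 36.1% of the 50-base windows of Cyp2a4 transcripts also occur in Cyp2a5, and 31% of those of Cyp2a5 in Cyp2a4. A read from such a stretch could have been counted for either gene, so the level of Cyp2a4 is uncertain. Cyp2a4 reads equalled 0.675% of those of Cyp2a5 on day 3 (exact 95% interval 0.348 to 1.18, counting error only) and 2.25% on day 5 (2.16 to 2.35). Exons of another gene on the opposite strand cover 13.5% of the Cyp2f2 exons and 10.45% of those of Cyp2u1, exons on the same strand cover 8.22% of those of Cyp4v3, and the sources used here do not say whether counting used strand.

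The copies are also alike at their starts. Both promoters come from RefSeq on GRCm38.p6 (the deposited table was made on GRCm39). They are shown because the genes sit in 1 cluster and are nearly the same upstream. Each runs from 250 bases before to 50 after the gene start, on the plus strand, at chr7:26835089-26835388 for Cyp2a5 and chr7:26306942-26307241 for Cyp2a4, and capitals mark the bases that differ.
Cyp2a5: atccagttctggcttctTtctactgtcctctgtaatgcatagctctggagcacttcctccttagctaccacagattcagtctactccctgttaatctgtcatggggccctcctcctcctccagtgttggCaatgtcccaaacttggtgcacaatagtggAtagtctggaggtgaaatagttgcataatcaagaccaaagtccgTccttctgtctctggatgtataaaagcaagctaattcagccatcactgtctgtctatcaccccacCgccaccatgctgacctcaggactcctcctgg
Cyp2a4: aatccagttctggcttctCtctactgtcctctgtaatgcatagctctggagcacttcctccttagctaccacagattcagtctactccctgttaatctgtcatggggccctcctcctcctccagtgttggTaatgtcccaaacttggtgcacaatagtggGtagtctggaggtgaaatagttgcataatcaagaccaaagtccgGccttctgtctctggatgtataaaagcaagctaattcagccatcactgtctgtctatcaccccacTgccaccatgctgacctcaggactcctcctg
Over 299 aligned bases the windows differed at 5 and were identical at 98.33%. Both held the letters TATAAA, present in 13.6% of all 32851 promoter windows of this length, and a match to TTGCNNAA, the core bound by C/EBP factors, present in 10.8% (both strands searched). These matches describe the letters only.

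Cyp2b10 (ENSMUSG00000030483), known in mouse liver for its induction by phenobarbital through the receptor Nr1i3, was already expressed on day 1. It had 242, 153 and 199.5 normalized counts on day 1, 861, 755 and 870.4 on day 3, and 1562, 1899 and 1964 on day 5, and the days did not overlap. It rose by 2.08 ± 0.16 on day 3 against day 1 (log2, SE, adjusted p = 2.0e-06) and by 1.12 ± 0.16 on day 5 against day 3 (adjusted p = 0.00017). Nr1i3 itself stayed under the limit, with means of 3.12, 1.16 and 1.62 normalized counts on days 1, 3 and 5. The Cyp2b10 promoter is printed with that of Cyp2f2, its far more abundant neighbour in the cluster. The windows are chr7:25897408-25897707 and chr7:27119705-27120004, both on the plus strand and of the same source and length as above. Capitals mark matches to TTGCNNAA and to GCGTG or its reverse complement CACGC, the core bound by Ahr with Arnt.
Cyp2b10: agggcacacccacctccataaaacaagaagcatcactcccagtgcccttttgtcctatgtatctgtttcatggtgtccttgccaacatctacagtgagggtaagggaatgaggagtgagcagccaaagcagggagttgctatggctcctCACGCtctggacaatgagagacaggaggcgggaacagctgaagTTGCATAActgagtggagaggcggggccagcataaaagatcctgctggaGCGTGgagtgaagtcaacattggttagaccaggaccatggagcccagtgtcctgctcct
Cyp2f2: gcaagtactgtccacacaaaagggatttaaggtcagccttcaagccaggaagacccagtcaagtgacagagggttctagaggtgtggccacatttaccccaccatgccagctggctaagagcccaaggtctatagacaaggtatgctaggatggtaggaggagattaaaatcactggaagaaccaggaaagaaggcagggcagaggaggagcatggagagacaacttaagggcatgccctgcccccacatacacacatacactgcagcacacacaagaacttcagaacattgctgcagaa
Cyp2b10 held 1 match to the first and 2 to the second motif. Cyp2f2 held none of the 4 motifs searched, which also included TATAAA and the forkhead letters TGTTTAC. Over the 21 detected members with a window, TTGCNNAA occurred in 6 and GCGTG in 8 (all windows, 10.8% and 32.4%), TATAAA in 2 and TGTTTAC in 0 (all windows, 13.6% and 3.65%).

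Cyp2s1, an epithelial P450 that dioxin induces, peaked on day 3. It had 486, 533 and 552 normalized counts on day 1, 1255, 1348 and 1153 on day 3, and 857, 845 and 870.1 on day 5, with no overlap between days. It rose by 1.26 ± 0.094 on day 3 against day 1 and fell by 0.54 ± 0.094 on day 5 against day 3 (log2, SE; adjusted p = 1.7e-06 and 0.00056). The fall was lost when libraries were scaled by their totals (log2 change -0.21, adjusted p = 0.071), and the net rise of 0.71 on day 5 against day 1 was lost once a trend on transcript length and GC content was removed (0.060, adjusted p = 0.53).

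The arachidonic acid epoxygenases of the Cyp2j group were represented by 2 of 8 members. Cyp2j6 had 283, 275 and 272 normalized counts on day 1, 654.5, 727 and 688 on day 3, and 931, 1092 and 1021 on day 5. It rose in both steps, by 1.31 ± 0.098 and 0.55 ± 0.098 (log2, SE; adjusted p = 1.6e-06 and 0.00062), and the second did not pass after removal of the length and GC trend (0.044, adjusted p = 0.77). Cyp2j9 was lower throughout, with 38.7, 38.2 and 49.7 on day 1, 61.2, 79.0 and 86.8 on day 3, and 163, 229.8 and 185 on day 5. It too rose in both steps, by 0.82 ± 0.22 and 1.33 ± 0.22 (adjusted p = 0.0061 and 0.00040).

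Cyp2b19, an epoxygenase known from mouse epidermal keratinocytes, was nearly absent on day 1. It had 1.356, 0 and 0 normalized counts on day 1, 16.2, 24.1 and 9.87 on day 3, and 89.2, 121 and 118 on day 5. The 41 reads of day 3, against 2 on day 1, gave a ratio of 34.6 with a counting interval of 9 to 296, and on day 5 it rose further against day 3, by 2.71 ± 0.44 (log2, SE, adjusted p = 0.00034). Cyp2t4 averaged 6.01, 22.4 and 56.8 normalized counts on days 1, 3 and 5 and rose in both steps (1.82 and 1.35 on the log2 scale, adjusted p = 0.0044 and 0.024), the second of which was lost without day 3 replicate 1, day 5 replicate 1 or day 5 replicate 2 (adjusted p = 0.096, 0.073 and 0.073). Cyp2u1, a hydroxylase of long-chain fatty acids in humans, averaged 14.5, 58.8 and 47.3. It rose by 1.93 ± 0.39 on day 3 against day 1 (adjusted p = 0.0010), while day 5 overlapped day 3.

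Cyp2s1, Cyp2b10, Cyp2a4, Cyp2b19, Cyp2a5, Cyp2f2 and Cyp2t4 lie in a single run of 13 members on chromosome 7. The other 6 members of the run were not detected. Cyp2a22 lay between Cyp2a5 and Cyp2f2 in order with no read in any library, and Cyp2a12, Cyp2b9, Cyp2b13 and Cyp2b23 stayed under the limit. Cyp2g1, best known from the olfactory lining, had 7.93, 7.74 and 11.1 normalized counts on day 5, against no read on day 1. Its 23 reads on day 5 were 12.8-fold above a floor of 3 reads for the 3 libraries of day 1, scaled for depth.

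**Figure D3:**
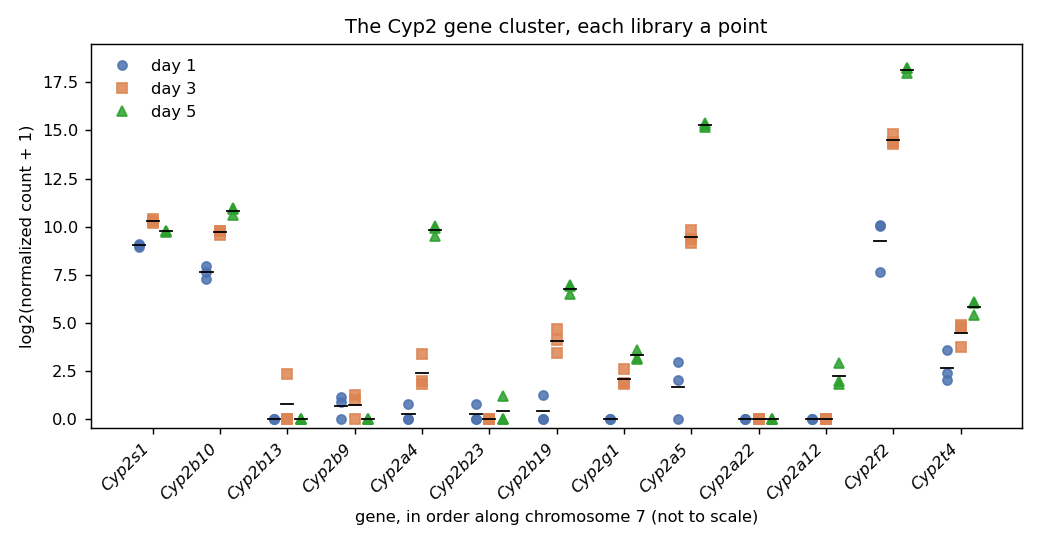
Level of each of the 13 Cyp2 genes of the chromosome 7 run in every library, as log2(normalized count + 1), with genes in chromosomal order on the x axis (not to scale), points for libraries and lines for the mean of each day. Of the 13 genes 7 were detected; Cyp2a22 stays at 0 between Cyp2a5 and Cyp2f2.

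Other groups of family 2 were silent or nearly so. None of the 15 Cyp2c members, the drug-metabolizing group of liver and intestine, was detected, 11 had no read, and the highest value was 3.96 normalized counts. Likewise, 0 of the 9 Cyp2d members passed the limit, with a highest value of 9.87. Cyp2e1, the ethanol-oxidizing P450, reached at most 2.498. Cyp2w1 had 29.7, 20.7 and 8.61 normalized counts on day 5 and no read on day 3. Its level on day 5 was 17.4-fold above the floor of 3 reads for day 3.

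Family 1 has 3 members, of which 1 was detected, and it was higher on day 1. Cyp1b1 (ENSMUSG00000024087), which oxidizes polycyclic aromatic hydrocarbons and estradiol and is a known target of the dioxin receptor Ahr, was expressed on all 3 days. It had 574, 384 and 555 normalized counts on day 1, 192, 217 and 245 on day 3, and 372, 314 and 265 on day 5. The highest value of day 3 lay below the lowest of day 1, and day 5 overlapped neither day 3 nor day 1. Cyp1b1 fell by 1.19 ± 0.19 on day 3 against day 1 and by 0.66 ± 0.19 on day 5 against day 1 (log2, SE; adjusted p = 0.00019 and 0.0081). Its rise of 0.53 on day 5 against day 3 (adjusted p = 0.027) was lost without any of day 3 replicates 1 and 2 or day 5 replicates 1 and 2 (adjusted p = 0.064 to 0.096) and came to 0.0031 after removal of the length and GC trend. The Cyp1b1 promoter (chr17:79715012-79715311, minus strand, RefSeq, GRCm38.p6, 250 bases before to 50 after the start, written in the direction of the gene) is shown because the gene is an Ahr target and fell; capitals mark the Ahr and Arnt core on the opposite strand.
Cyp1b1: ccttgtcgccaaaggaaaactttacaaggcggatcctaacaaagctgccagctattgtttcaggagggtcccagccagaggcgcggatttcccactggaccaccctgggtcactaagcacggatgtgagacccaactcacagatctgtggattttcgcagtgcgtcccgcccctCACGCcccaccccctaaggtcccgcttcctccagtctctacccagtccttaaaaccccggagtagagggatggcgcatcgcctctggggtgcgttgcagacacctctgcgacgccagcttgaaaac
GCGTG or its reverse complement occurred in 32.4% of all windows, so its presence here is a description of the letters.

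Cyp1a1, the classical Ahr target, stayed near the limit of detection. It had 13.6, 8.30 and 19.4 normalized counts on day 1, 0, 5.36 and 3.95 on day 3, and 1.98, 3.87 and 9.85 on day 5. When genes under the limit were tested too, it fell on day 3 against day 1 by 2.15 ± 0.74 (log2, SE, adjusted p = 0.032).

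Of 7 members of family 3, the main drug- and steroid-oxidizing P450s of liver, Cyp3a13 was detected and 4 had no read. It had 239, 306 and 264 normalized counts on day 1, 387, 359 and 445 on day 3, and 530.1, 657 and 601 on day 5. The days did not overlap. The rises were small, 0.56 ± 0.14 and 0.58 ± 0.14 on the log2 scale (SE, adjusted p = 0.0038 and 0.0037). The first was lost when libraries were scaled by their totals (adjusted p = 0.082) and the second after removal of the length and GC trend (adjusted p = 0.58).

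**Figure D4:**
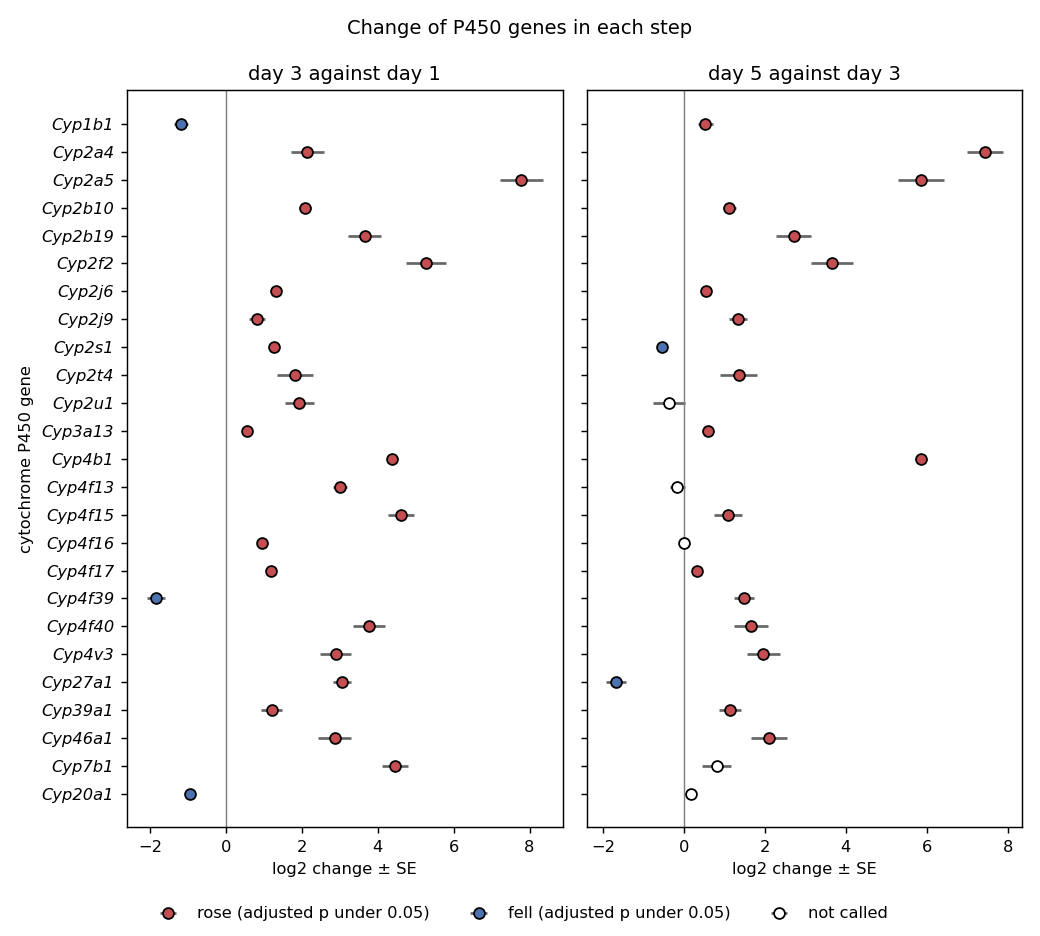
Log2 change ± SE of each detected P450 gene on day 3 against day 1 (left) and day 5 against day 3 (right), from the fit over all 9 libraries, with filled points for genes that rose or fell and open points for those not called. Cyp2a5 has the largest change on the left (7.79) and Cyp2a4 on the right (7.43); Cyp1b1, Cyp4f39 and Cyp20a1 lie left of 0 in the first step, and so do Cyp27a1 and Cyp2s1, and without being called Cyp2u1 and Cyp4f13, in the second.

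Family 4 hydroxylates fatty acids, and 8 of its 17 members were detected. On day 3 against day 1, 7 rose and 1 fell (36.1% and 37% of all tested genes), of which Cyp4b1, Cyp4f40 and Cyp4v3 were detected only through later days. Of the 8, 6 rose on day 5 against day 3 and 2 did not pass (34.8% of all tested genes rose). Cyp4b1 (ENSMUSG00000028713), known for activating the lung toxin ipomeanol, had 10.2, 8.30 and 10.9 normalized counts on day 1, 189.9, 226 and 257 on day 3, and 12687, 12691 and 13319.7 on day 5. Replicates were close, and the days far apart. Cyp4b1 rose in both steps, by 4.38 ± 0.14 and 5.85 ± 0.14 (log2, SE; adjusted p = 5.2e-08 and 8.3e-09), and the second step was the larger by 1.47 ± 0.25 (adjusted p = 0.00042). Of its 50-base windows 10.3% also occur in other Cyp genes or pseudogenes.

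The Cyp4f group, which inactivates leukotriene B4 and hydroxylates long fatty acids, has 9 members, of which 8 form a run on chromosome 17, 6 of them detected, and Cyp4f18 on chromosome 8 stayed under the limit. Most of them rose early. Cyp4f13 had 92.2, 109.6 and 121 normalized counts on day 1, 1030.5, 893 and 704 on day 3, and 642, 906 and 799.9 on day 5. It rose by 3.00 ± 0.18 on day 3 against day 1 (log2, SE, adjusted p = 5.2e-07), and days 5 and 3 overlapped. Cyp4f15 had 22.4, 7.47 and 23.0 on day 1, 385, 499 and 367 on day 3, and 898, 853 and 891 on day 5. It rose by 4.62 ± 0.34 and then by 1.09 ± 0.34 (adjusted p = 1.6e-06 and 0.016), and the second step minus the first was -3.53 ± 0.59 (adjusted p = 0.00038).

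Cyp4f16 and Cyp4f17 changed less. Cyp4f16 had 229, 247 and 232 normalized counts on day 1, 517, 447 and 421 on day 3, and 454, 449 and 489 on day 5, so that days 5 and 3 overlapped. It rose by 0.96 ± 0.11 on day 3 against day 1 (log2, SE, adjusted p = 2.7e-05). Of its 50-base windows 24.8% also occur in Cyp4f37, whose reads were at most 1.87% of those of Cyp4f16 on any day. Cyp4f17 had 176, 160.2 and 183 on day 1, 377, 435 and 384 on day 3, and 479, 549 and 468 on day 5. It rose by 1.20 ± 0.12 on day 3 against day 1 (adjusted p = 9.5e-06). Its rise of 0.32 on day 5 against day 3 (adjusted p = 0.038) was lost with the replicate number as a block (adjusted p = 0.071) and without day 3 replicate 1, day 3 replicate 3 or day 5 replicate 2 (adjusted p = 0.12, 0.092 and 0.14), and turned to -0.084 after removal of the length and GC trend.

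Cyp4f39, the mouse counterpart of the human enzyme CYP4F22 that makes the very long acyl chains of the skin barrier, went the other way. It had 367, 188 and 365 normalized counts on day 1, 73.7, 80.3 and 89.8 on day 3, and 229.9, 241 and 215 on day 5. It fell by 1.84 ± 0.24 on day 3 against day 1 and rose by 1.49 ± 0.24 on day 5 against day 3 (log2, SE; adjusted p = 5.1e-05 and 0.00035). Days 5 and 1 overlapped through day 1 replicate 2, and without that library day 5 was lower than day 1 by a log2 change of -0.68 (adjusted p = 0.0034), against -0.36 (adjusted p = 0.20) with all libraries. Cyp4f40 had 1 read on day 1 and averaged 16.5 and 49.6 normalized counts on days 3 and 5, with a ratio of 67.6 between days 3 and 1 (counting interval 11.5 to 2.74e+03).

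Cyp4v3, a fatty acid hydroxylase whose human counterpart is mutated in a retinal dystrophy, had 10.2, 2.49 and 9.10 normalized counts on day 1, 44.97, 65.6 and 51.3 on day 3, and 228, 212 and 193 on day 5. It rose by 2.89 ± 0.40 and by 1.96 ± 0.40 in the 2 steps (log2, SE; adjusted p = 8.2e-05 and 0.0016). Among the 9 members of the family under the limit, Cyp4a32 had 28.7, 9.04 and 11.1 on day 5 and no read on days 1 and 3. Its level on day 5 was 14.8-fold above the floor of 3 reads for day 3. Of its windows 46.8% also occur in other Cyp genes, 34.8% in Cyp4a10.

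Of 15 members that act on sterols, steroids, bile acids or vitamin D, Cyp2r1 included, 4 were detected and 4 had no read. All 4 rose on day 3 against day 1 (36.1% of all tested genes), though Cyp46a1 and Cyp7b1 were detected only through later days. Of the 4, 2 rose on day 5 against day 3, 1 fell and 1 did not pass (34.8% and 32.4% of all tested genes rose and fell). Cyp27a1, the mitochondrial enzyme that hydroxylates the sterol side chain, was highest on day 3. It had 26.4, 20.8 and 34.0 normalized counts on day 1, 209.8, 249 and 229.9 on day 3, and 58.5, 94.2 and 66.5 on day 5, with no overlap between days. It rose by 3.06 ± 0.25 and then fell by 1.66 ± 0.25 (log2, SE; adjusted p = 2.4e-06 and 0.00020).

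Cyp7b1 and Cyp39a1 hydroxylate oxysterols on the way to bile acids. Cyp7b1 had 7.46, 3.32 and 12.1 normalized counts on day 1, 185, 181 and 148 on day 3, and 266, 307 and 326 on day 5. It rose by 4.45 ± 0.35 on day 3 against day 1 (log2, SE, adjusted p = 2.0e-06). On day 5 against day 3 all 3 libraries were higher, but the change of 0.81 ± 0.35 did not pass (adjusted p = 0.060). It passed without day 1 replicate 2 or 3 (adjusted p = 0.0083 and 0.023), with a pseudocount of 8, with voom, with scaling by totals and with only the 2 days in the fit. Cyp39a1 had 161, 76.4 and 168 on day 1, 254, 361.5 and 280.25 on day 3, and 697, 629.9 and 633 on day 5. It rose by 1.20 ± 0.27 and by 1.14 ± 0.27 (adjusted p = 0.0020 and 0.0036).

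Cyp46a1, the cholesterol hydroxylase best known from neurons, averaged 0.880, 11.4 and 54.0 normalized counts on days 1, 3 and 5 and rose in both steps (2.863 and 2.101 on the log2 scale, adjusted p = 0.00018 and 0.0019). Cyp11a1 and Cyp17a1, enzymes of steroid hormone synthesis, reached at most 4.02 and 2.58, and the vitamin D enzymes Cyp27b1 and Cyp24a1 at most 11.5 and 1.82. The orphan Cyp20a1, whose substrate is not known, was second per kb on day 1. It had 629, 741 and 635 normalized counts on day 1, 296, 361.5 and 396 on day 3, and 384, 422 and 379 on day 5. It fell by 0.93 ± 0.13 on day 3 against day 1 (log2, SE, adjusted p = 8.5e-05), and days 5 and 3 overlapped.

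Per kb, the order of the family changed with time. On day 1 the mean of Cyp2f2 was 414 ± 269 normalized counts per kb, which did not stand clear of Cyp20a1 at 301 ± 28.2, and both were followed by Cyp2s1 at 166 ± 10.7 (SD, n = 3 each). On day 3 Cyp2f2 led with 12629.7 ± 2443 per kb. Behind it Cyp4f13 (499.8 ± 93.7), Cyp2b10 (433 ± 33.3), Cyp2s1 (396 ± 30.96) and Cyp2a5 (353 ± 91.2) followed each other within their spread. On day 5 the leading genes were clearly apart, with 157885 ± 15316 per kb for Cyp2f2, 19940.0 ± 1505 for Cyp2a5, 6818 ± 193 for Cyp4b1 and 944 ± 113 for Cyp2b10, whereas Cyp2a4 (526 ± 94.6) and Cyp4f13 (447 ± 75.8) lay within their spread of each other.

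The steps themselves were compared for each detected member, as the second change minus the first. The difference was positive for 5 members (Cyp1b1, Cyp20a1, Cyp2a4, Cyp4b1 and Cyp4f39), beside 36.8% of all tested genes, and negative for 11, beside 33.9%. For Cyp1b1, Cyp20a1 and Cyp4f39 it followed a fall in the first step. The difference for Cyp1b1 did not pass the limma test after removal of the length and GC trend (0.45, adjusted p = 0.15). Cyp4b1 rose more in the second step than in the first. For Cyp2a4 the order of the steps is not settled, since its first step rests on 1 read on day 1.

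The genes that serve, regulate or share regulators with P450s, read together with Cyp51, did not move as a block. Of 44 detected genes, made up of lists of redox partners, heme metabolism, regulators and Ahr targets and of Cyp51, 22 rose and 13 fell on day 3 against day 1, 17 rose and 15 fell on day 5 against day 3, and 24 rose and 9 fell on day 5 against day 1. These counts, and those of each list in the next paragraphs, stand beside 36.1% of all tested genes that rose and 37% that fell on day 3 against day 1, 34.8% and 32.4% on day 5 against day 3, and 36.7% and 37.7% on day 5 against day 1. Of 10 redox partners, 6 rose and 2 fell on day 3 against day 1, and 3 rose and 4 fell on day 5 against day 3. Por is the electron donor of most P450s of the endoplasmic reticulum. It had 9499, 9907 and 10085 normalized counts on day 1, 31729.5, 31999 and 31542 on day 3, and 22736, 24713 and 24398 on day 5. It rose by 1.69 ± 0.099 and then fell by 0.41 ± 0.099 (log2, SE, adjusted p = 5.0e-07 and 0.0042). Of the days sampled, Por was highest on day 3, while Cyp2f2, Cyp2a5 and Cyp4b1 were highest on day 5, the last.

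The cytochrome b5 genes Cyb5a and Cyb5b went opposite ways. Cyb5a averaged 1749 ± 173, 6062 ± 323 and 14415 ± 2323 normalized counts on days 1, 3 and 5 (SD, n = 3 each). It rose in both steps, by 1.80 and 1.24 on the log2 scale (adjusted p = 1.3e-06 and 1.7e-05). Cyb5b averaged 8775 ± 572, 6217 ± 237 and 4032 ± 65.3 on the same days. It fell in both steps, by 0.50 and 0.62 (adjusted p = 0.00035 and 0.00011). The mitochondrial donor Fdx1 rose by 1.39 and Fdxr by 1.30 on day 3 against day 1 (adjusted p = 8.0e-06 and 0.00015), and Fdxr fell by 1.19 on day 5 against day 3 (adjusted p = 0.00042), as did the mitochondrial Cyp27a1. Pgrmc1, a heme-binding partner of P450s, rose by 1.74 on day 5 against day 3 (adjusted p = 1.6e-07).

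Of the 8 heme synthesis genes, 5 rose and 2 fell on day 3 against day 1, and 3 rose and 3 fell on day 5 against day 3. Alas1, which controls the first step, averaged 1818 ± 201, 3436 ± 356 and 12525 ± 358 normalized counts on days 1, 3 and 5 (SD, n = 3 each) and rose by 0.92 and 1.87 on the log2 scale (adjusted p = 2.7e-05 and 4.0e-07). The next enzyme, Alad, peaked on day 3 with 5399.8 ± 709.6 between 1209 ± 15.6 on day 1 and 1332 ± 314 on day 5. Cpox, further along the pathway, fell by 2.04 on day 3 against day 1 (adjusted p = 1.2e-06). Of the 4 heme breakdown genes, 2 rose and 2 fell on day 3 against day 1, and Blvrb, a biliverdin reductase, averaged 219.6 ± 35.3, 2807 ± 309 and 899.8 ± 164 on days 1, 3 and 5.

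Of 22 regulators, 16 were detected, of which 7 rose and 4 fell on day 3 against day 1 and 9 rose and 2 fell on day 5 against day 3. Cebpa, Cebpb and Cebpd, the C/EBP factors, rose in both steps. Cebpd averaged 189.9 ± 38.6, 1119 ± 205 and 1652 ± 238 normalized counts on days 1, 3 and 5 (SD, n = 3 each) and rose by 2.56 and 0.57 (log2, adjusted p = 1.2e-06 and 0.016). Foxa2 rose by 1.33 and 1.37 (adjusted p = 0.0010 and 0.0011), and Foxa1 by 1.28 in the second step (adjusted p = 1.3e-05), with 0.05 in the first (adjusted p = 0.77). Ppard averaged 2823, 1474 and 766 on days 1, 3 and 5 and fell by 0.94 in each step (adjusted p = 2.2e-05 and 3.5e-05). The nuclear receptor genes Nr1i2 and Hnf4a, known as P450 regulators of liver, averaged at most 7.96 and 1.62.

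The Ahr group did not move in a single direction. Ahr fell by 0.42 and Arnt by 0.94 on day 3 against day 1 (log2, adjusted p = 0.031 and 0.00051). Of 5 Ahr targets outside the family, 2 rose and 2 fell in that step. Ugt1a6a did not pass in it (log2 change -0.50, adjusted p = 0.15) and rose by 2.91 on day 5 against day 3 (adjusted p = 1.4e-05). Tiparp had 1587, 2028 and 1732 normalized counts on day 1, 556, 533 and 754 on day 3, and 445, 425 and 409 on day 5, and fell in both steps, by 1.55 and 0.51 (adjusted p = 5.3e-06 and 0.0092). Ahrr, the repressor of the pathway, averaged 16.8 ± 7.13, 2.98 ± 2.63 and 1.65 ± 2.86 on days 1, 3 and 5, and fell by 2.45 on day 3 against day 1 (adjusted p = 0.020). Cyp1b1 fell in the same step, while Nqo1 and Aldh3a1, which other regulators also drive, rose by 2.09 and 2.64 on day 3 against day 1 (adjusted p = 2.4e-07 and 4.5e-06) and fell by 2.177 and 1.081 on day 5 against day 3 (adjusted p = 1.5e-07 and 0.0024).

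**Figure D5:**
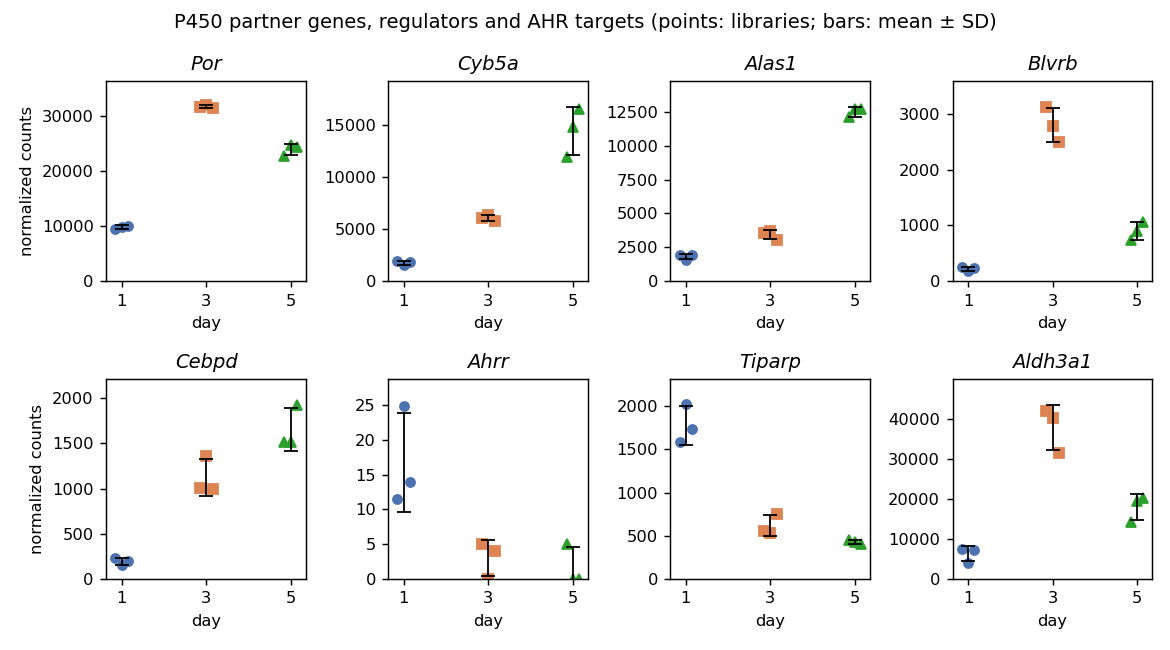
Normalized counts of 8 genes that serve, regulate or share regulators with P450s, by day, with points for libraries and bars for mean ± SD (n = 3). Por, Blvrb and Aldh3a1 are highest on day 3, Cyb5a, Alas1 and Cebpd on day 5, and Ahrr and Tiparp on day 1.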

How the data were processed

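RNA of 9 libraries from primary mouse airway basal stem cells in air-liquid culture was sequenced, 3 libraries on each of days 1, 3 and 5, with groups and replicate numbers taken from the sample titles. The submitters' processing notes name HISAT2 2.1.0, DESeq2 1.36.0 and the build GRCm39. The sources used here do not name the read counter, the annotation or the use of strand. The authors deposited a single table of log2 normalized counts, without a pseudocount, in which 297330 cells of genes with no read hold an error text that was read as 0. Of 57107 lines, 359 repeats were dropped. Back on the linear scale, 100% of values were whole numbers of reads once divided by the library's step (tolerance 0.01), so reads were recovered.

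Genes with at least 10 normalized counts in 3 libraries, 17338 in all, were tested on log2(normalized count + 1), a scale that understates changes of low genes, with limma 3.58.1 in R 4.3.3. The fit had 1 mean per day, a mean-variance trend and 6 residual degrees of freedom. Two-sided p-values were adjusted over all tested genes (Benjamini-Hochberg, 0.05), and every adjusted p is from this fit unless another setting is named. The fit was also run on simulated data in which only genes with a day 1 mean of at least 100 were changed. That run does not cover genes that are low on day 1. Every member with a mean of at least 100 on some day, and 8 fixed members, are given in every library, and the rest by means or counts. Members, gene lists and tests were chosen with earlier results of these data known. Alternatives covered pseudocount, filter, scaling, voom, the samples in the fit, a replicate block, a length and GC trend and each library left out.

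Total reads averaged 30.8, 21.9 and 17.6 M on days 1, 3 and 5. Intervals on counts cover counting error only. A floor is 3 reads over the libraries of a day with no read. Folds above a floor leave out the counting error of the other day, so they are not lower bounds. Transcript lengths, shared 50-base windows, gene order and exon overlap came from GENCODE M21 on GRCm38 by gene identifier (91 of 92 members matched, Cyp2d13 not), and promoters from RefSeq (70 of 92 members). A run of members is 1 with at most 10 other coding genes between neighbours.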

Additional observations from a re-analysis of the deposited data

How the results depend on the processing

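Of the members' single changes under 20 alternatives, 1870 kept their direction and their side of the threshold, 32 lost the call, 18 gained it and 23 turned direction. Counts of P450 and partner genes stayed within 1.5 times of those reported, with these exceptions. With no filter, 5 members fell on day 3 against day 1 (3 with the filter), and the second step minus the first was positive for 10 (5). Scaling by library totals left 1 member falling on day 5 against day 3 (2 otherwise), 6 negative differences between steps (11) and 20 positive ones among partner genes (11); it set the median of all genes to -0.24 on day 3 against day 1 and 0.38 on day 5 against day 3 (0.0034 and 0.055 otherwise). Removing the length and GC trend left 11 partner genes rising on day 5 against day 3 (17) and 16 falling on day 5 against day 1 (9), and set the median of all genes to -0.23 and -0.24. No count left this range with a library left out. The causes were not tested.

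These log2 changes turned direction, all of them of genes that did not pass the test in the reported fit except Cyp4f17. On day 5 against day 3, removing the length and GC trend gave -0.17 for Cyp20a1, -0.21 for Cyp4f16 and -0.084 for Cyp4f17, quantile normalization gave -0.042 for Cyp4f16, and scaling by totals gave 0.18 for Cyp4f13. Leaving out each library in turn gave -0.62 to 0.039 for Cyp2u1 and -0.053 to 0.095 for Cyp4f16. For the second step minus the first, a pseudocount of 8 gave 0.77 for Cyp2b19 and 0.50 for Cyp46a1. Scaling by totals gave 0.097 for Cyp2t4 and 0.54 for Cyp39a1, quantile normalization 0.065 for Cyp39a1, voom -0.0095 for Cyp3a13, and the length and GC trend 0.17 for Cyp2t4 and -0.85 for Cyp3a13. Leaving out each library gave -0.28 to 0.30 for Cyp39a1 and -0.11 to 0.20 for Cyp3a13.

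With the replicate number as a block, the call of Cyp4f17 on day 5 against day 3 was the only member call to change (adjusted p = 0.071). Deviations from the day mean correlated at -0.31 to 0.14 between same-numbered libraries of different days. Between differently numbered ones they correlated at -0.15 to 0.36. Deviations from a mean of 3 libraries depend on each other, so these values cannot decide whether same-numbered libraries share a source. Depth limits the 67 undetected members, of which those with no read are not detectable at this depth rather than shown to be absent.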

Other observations

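P450 genes whose names fall outside the pattern also changed. Cyp51, which removes a methyl group from lanosterol in cholesterol synthesis, averaged 7673 ± 396, 3482 ± 141 and 1724 ± 125 normalized counts on days 1, 3 and 5 (SD, n = 3 each). It fell in both steps, by 1.14 ± 0.088 and 1.02 ± 0.088 on the log2 scale (SE, limma, adjusted p = 1.8e-06 and 5.1e-06), while Cyp2f2 rose.

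Cyp4a12b, a fatty acid hydroxylase best known from mouse kidney, had 1 read on day 1, 12.5, 13.4 and 11.8 normalized counts on day 3, and 809, 741 and 924 on day 5. Its close copy Cyp4a12a had no read on day 1 and averaged 1.55 ± 1.39 on day 3 and 136 ± 36.7 on day 5 (SD, n = 3 each), and reads of the pair may be shared. The pseudogene Cyp2a21-ps had 1 read on day 1, 3.75, 2.68 and 0.987 normalized counts on day 3, and 935, 607 and 892 on day 5. Its reads equalled 0.337% of those of Cyp2a5 on day 3 and 2.06% on day 5 (exact 95% intervals 0.124 to 0.736 and 1.98 to 2.15). Of the 50-base windows of Cyp2a5, 40.8% also occur in some other Cyp gene or pseudogene. Whether reads of Cyp2a5 were counted for Cyp2a21-ps was not tested, so the level of the pseudogene is uncertain.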
